A study of Mus musculus with 5 samples.

Results

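Genes of cholesterol and fatty acid synthesis, of their control by the SREBP factors and of cholesterol export under the LXR receptors were followed in 5 transplanted mouse hearts. The list holds 35 genes, taken by symbol from the annotation of the array and read from the brightest probe set of each gene. Of these, 32 were measured, among 19938 genes with a probe set of their own, and Acat2, Nr1h2 and Soat1 had no probe set with a single symbol in the annotation used here. RMA signals (log2 values that had been background-corrected, normalized across arrays and summarised per probe set by the authors) were given for each graft.

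Donor hearts from C57BL/6 mice, 8 weeks old by the study's methods, were implanted into the abdomen of C57BL/6 recipients as second hearts. In the I/R group (n = 3, grafts 2553, 2555 and 2557, here I/R 1, 2 and 3) the heart lay in University of Wisconsin solution at 4 °C for 18 h before implantation, and in the non-I/R group (n = 2, grafts 2554 and 2556, here non-I/R 1 and 2) it was implanted at once. Non-I/R grafts were therefore also transplanted and reperfused, and no heart without surgery is among the samples. Harvest was at 24 h by the labels and at day 2 by the legends of the study, and the sex of the animals is not given in the sources used here. Each graft was hybridised to 1 Affymetrix Mouse Gene ST array, the numbers of the grafts only name them, and nothing says that same-numbered grafts belong together.

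Cells make cholesterol from acetyl-CoA through mevalonate and squalene, and the steps from squalene on take place at the membrane of the endoplasmic reticulum. When sterol in that membrane is scarce, the SCAP protein escorts SREBP to the Golgi, where it is cut to a transcription factor that turns on the enzymes of the route, while the INSIG proteins hold the complex back when sterol is plentiful. The LXR receptors work in the other direction. They sense oxidised sterols and turn on the ABC transporters that carry cholesterol out of the cell, as well as the gene of SREBP1. Heart muscle makes little cholesterol or fat of its own and mostly burns fatty acids supplied from the blood.

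Some letters of the start regions are shown here because SREBP acts together with the factors NF-Y and Sp1, and because the genes of Msmo1, Lss and Lbr gave higher signals in the I/R grafts. Hmgcs1 is shown beside them because it alone among the measured members with an entry held the sterol element searched for. The sequences are RefSeq promoters of the GRCm38.p6 build, ending before the earliest transcript start of each gene, with NF-Y boxes (CCAAT), Sp1 boxes (GGGCGG) and the sterol regulatory element (TCACNCCAC, where N is any base) on either strand in capitals. Msmo1 lies on the minus strand at chr8:64733579-64733748, Lss on the plus strand at chr10:76531435-76531564, Lbr on the minus strand at chr1:181842402-181842571 and Hmgcs1 on the plus strand at chr13:119690181-119690350.
Msmo1: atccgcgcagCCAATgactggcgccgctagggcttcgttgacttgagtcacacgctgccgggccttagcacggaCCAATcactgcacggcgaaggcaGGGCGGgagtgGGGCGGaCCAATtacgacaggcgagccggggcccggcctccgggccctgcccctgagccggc
Lss: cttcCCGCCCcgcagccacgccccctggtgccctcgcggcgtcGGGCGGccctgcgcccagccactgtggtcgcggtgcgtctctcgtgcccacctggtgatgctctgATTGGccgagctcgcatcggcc
Lbr: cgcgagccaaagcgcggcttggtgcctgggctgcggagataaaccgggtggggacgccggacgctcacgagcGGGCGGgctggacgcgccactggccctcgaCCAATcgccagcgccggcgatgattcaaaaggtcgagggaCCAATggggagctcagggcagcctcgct
Hmgcs1: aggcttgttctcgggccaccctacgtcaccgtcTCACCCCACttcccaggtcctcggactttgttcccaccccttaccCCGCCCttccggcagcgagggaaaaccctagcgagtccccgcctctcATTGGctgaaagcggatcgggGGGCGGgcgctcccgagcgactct
Msmo1 has 3 NF-Y boxes and 2 Sp1 boxes in these 170 bases, Lbr has 2 and 1, and Lss has 1 and 2 in 130 bases. In Hmgcs1, 1 sterol element stands with 1 NF-Y box and 2 Sp1 boxes. The Lss sequence ends 40 bases before the start that the promoter table uses, since another transcript of the gene starts there. No pair of these motifs shares a base here.

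RefSeq promoters of 250 bases before to 50 bases after the start were found for 24 of the 32 measured members. Of those, 20 (83.3%) held an NF-Y box and 20 (83.3%) an Sp1 box, against 41.1% and 38.2% of all 27025 genes in the table. The shares over all 32851 promoters were 37.4% and 35.7%. A sterol element was found in 1 of the 24 and in 1.44% of all genes, or 1.24% of all promoters. An E-box (CACGTG) was found in 6 of the 24 and in 8.09% of all genes, or 7.15% of all promoters, and the LXR element (AGGTCA repeated in the same direction with NNNN between the copies) in none of the 24 and in 0.0152% of all promoters. These counts describe letters and were not tested. Promoter length, base composition and the number of starts per gene differ between genes and were not matched. Only 4 of the 24, Elovl6, Lbr, Lss and Msmo1, had higher signals in I/R at an unadjusted p under 0.05 (limma). Most members with an NF-Y or Sp1 box thus did not. Elovl6 held none of the motifs, and Sqle and Stard4, which had higher signals too, have no entry in the table.

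In the I/R grafts, 6 of the 32 members had higher signals and none had lower signals at an unadjusted p under 0.05 (limma), which is 18.8% against 7.64% of all 21789 probe sets that were higher. In either direction 15% of all probe sets passed. All measured members lay at percentile 42.9 of mean signal or above, while that background holds dim probe sets. With the dimmest 25% left out, 20% of probe sets passed in either direction, and 7 members were higher and 0 lower. The share of members called was thus near that of brighter probe sets, and the calls differed from it in direction. The members that rose were Sqle and Msmo1, by 2-fold, and Lss and Lbr, all of the stretch from squalene to cholesterol, the fatty acid elongase Elovl6 and the cholesterol carrier Stard4. Sqle and Msmo1 had been seen in the study's 2-fold list from these arrays before the comparison. No member passed after adjustment over the 21789 probe sets tested (limma, smallest adjusted p of a member = 0.282). None of those probe sets did either (limma, smallest adjusted p = 0.18). The methods' t-test also gave 6 higher and 0 lower members, with Scap in place of Stard4, and again 0 after adjustment. With 3 grafts against 2, an exact permutation test (two-sided) cannot go below p = 0.1, and since nothing says how animals were kept or batched, the p-values measure the spread between these grafts. At the study's 2-fold criterion (2-fold at an unadjusted p under 0.05) 2 members were higher and 0 lower, against 0.496% and 1% of all probe sets, or 1.5% in either direction. That count was 0 without non-I/R 1 or without I/R 3 and 1 without I/R 1. The median log2 fold change of the 32 members was 0.14 and that of all probe sets tested was -0.008. Mean signals were higher in I/R for 21 members and lower for 11, against 45.9% and 54.1% of all probe sets, and 15 of the 32 differed by under 0.2 on the log2 scale.

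In 12 members every I/R graft lay above both non-I/R grafts and in 4 every I/R graft lay below, against 15.8% and 16.2% of all probe sets. The other 16 overlapped. Among the 18 measured enzymes of cholesterol synthesis, I/R 1 and I/R 3 each gave the highest signal for 7, while I/R 2 gave the lowest for 6, as did non-I/R 2. The I/R grafts were thus not uniform, and I/R 2 stood nearer to the non-I/R grafts over these enzymes, with a mean deviation of -0.03 from the mean of all grafts, against 0.15 and 0.11 in I/R 1 and I/R 3 and -0.10 and -0.13 in non-I/R 1 and 2. Leaving out I/R 1 brought the median of these 18 log2 fold changes from 0.14 to 0.05.

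**Figure D1:**
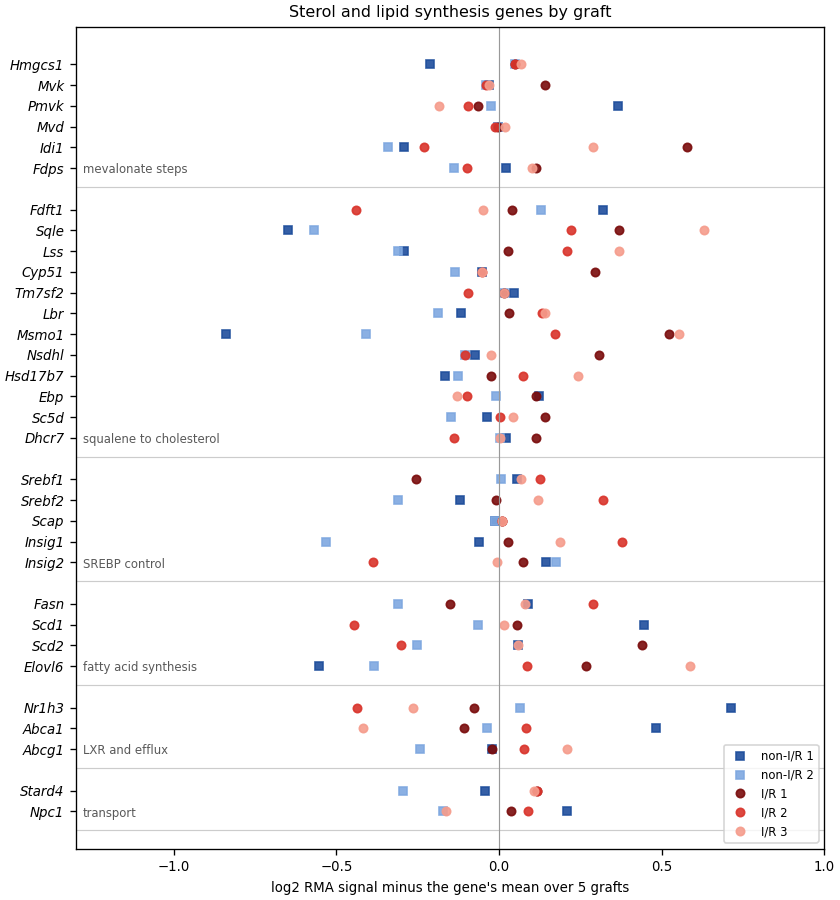
Signals of the 32 measured members in each graft, as the log2 RMA signal minus the mean of that gene over the 5 grafts (x axis), by role (rows). Squares are the 2 non-I/R grafts and circles the 3 I/R grafts. For Sqle, Msmo1, Lss and Elovl6 the squares lie to the left and the circles to the right, and for Nr1h3 the order is turned.

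In whole grafts fewer cells of a type and less RNA per cell cannot be told apart, which touches every difference given here. Markers are counted here at the unadjusted threshold, where 7.64% of all probe sets were higher and 7.35% lower in I/R. Of 9 heart muscle markers, 8 were lower and 0 higher in I/R, and 9 had lower means. Their median log2 fold change was -0.51. Mean levels were 13.26 and 13.07 in non-I/R 1 and 2 against 12.49, 12.39 and 12.72 in I/R 1, 2 and 3. Of 9 neutrophil markers, 4 were higher and 1 lower, while by mean 8 were higher and 1 lower. Their median log2 fold change was 0.86, with mean levels of 8.91 and 9.12 against 9.36, 10.04 and 9.70. Of 9 macrophage and monocyte markers, 1 was higher and 0 lower (median 0.02), and their mean level was 10.07 and 9.58 in the non-I/R grafts and 10.06, 9.91 and 9.62 in the I/R grafts. Of 9 fat cell markers, 1 was higher and 1 lower, while by mean 2 were higher and 7 lower. Their mean level was 6.86 in both non-I/R grafts and 6.76, 6.82 and 6.76 in the I/R grafts. The fat cell hormone gene Adipoq stayed between 4.44 and 4.51 in all grafts, and the brown fat gene Ucp1 between 5.22 and 5.30. Other genes of these lists were brighter, up to a mean of 11.91 in the fat cell list. Those past the unadjusted threshold were Lipe (-0.71) and Car3 (0.31) of the fat cell list and Cidea (-1.12) of the brown fat list, as log2 fold changes. Atrial markers differed between grafts of one group, at mean levels of 10.67 and 7.80 (non-I/R 1 and 2) against 8.41, 10.53 and 9.39 (I/R 1, 2 and 3). In the endothelial list (7 genes) and the fibroblast list (6 genes), 0 and 0 were higher and 0 and 1 lower. Liver, adrenal cortex and skeletal muscle lists had 0 genes higher and 1, 0 and 1 lower, and the brown fat list had 0 and 1. The lower gene of the skeletal muscle list was Ckm, which is also counted in the heart muscle list. The part of these cells in the differences below was not tested.

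Enzymes of the first stretch, from acetyl-CoA to farnesyl diphosphate, mostly differed little. None of the 6 measured members passed the unadjusted threshold, which 15% of all probe sets passed, and their median log2 fold change was 0.08. Idi1, the isomerase that makes the reactive isoprene unit, gave log2 signals of 7.09 and 7.04 (non-I/R 1 and 2) against 7.96, 7.15 and 7.67 (I/R 1, 2 and 3). All I/R grafts lay above both non-I/R grafts, but I/R 2 only just. The log2 fold change was 0.53 (SE 0.273, limma adjusted p = 0.449), and 0.57 from its other probe set. Without I/R 2 it was 0.75 and passed the unadjusted threshold, and without I/R 1 it was 0.34. Hmgcs1, the cytosolic synthase at the entry to the mevalonate route, had 8.69 in non-I/R 1 and 8.95 to 8.97 in the other 4 grafts. Its log2 fold change of 0.13 (SE 0.087) thus rested on 1 non-I/R graft and was 0.0055 without non-I/R 1 and 0.26, past the unadjusted threshold, without non-I/R 2. The kinase Pmvk had 7.06 and 6.67 in the non-I/R grafts and 6.63, 6.60 and 6.51 in the I/R grafts, a log2 difference of -0.29 (SE 0.136) with groups apart and no call. It was -0.09 without non-I/R 1 and -0.48, past the unadjusted threshold, without non-I/R 2. Fdps, Mvk and Mvd had log2 fold changes of 0.09, 0.06 and 0.0033. Between Mvd signals the widest gap was from 7.29 to 7.32.

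The stretch from squalene to cholesterol held 4 of the 6 members that rose, and 12 of the 32 measured members. Of its 12 enzymes, 8 had higher and 4 lower mean signals in I/R, and the median log2 fold change was 0.16. At the unadjusted threshold 4 (33.3%) were higher and 0 lower, against 7.64% and 7.35% of all probe sets. Of these 4, Sqle and Msmo1 had been seen beforehand in the study's 2-fold list from the same arrays. Sqle, the squalene monooxygenase that takes up oxygen at a rate-limiting step, gave log2 signals of 6.65 and 6.73 (non-I/R 1 and 2) against 7.67, 7.52 and 7.93 (I/R 1, 2 and 3). The groups were apart by more than the whole spread within either of them. With means of 6.69 ± 0.0611 (SD, n = 2) and 7.70 ± 0.208 (SD, n = 3), its log2 fold change was 1.01 (SE 0.141, limma adjusted p = 0.282), or 2.02-fold. It ranged from 0.90 to 1.11 with 1 graft left out and stayed past the unadjusted threshold each time, though not without non-I/R 1 and I/R 2 together (1.06).

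Msmo1, the methylsterol monooxygenase that removes methyl groups from lanosterol's product, showed the widest difference of all members. Its log2 signals were 7.72 and 8.15 in the non-I/R grafts and 9.08, 8.73 and 9.11 in the I/R grafts. Both non-I/R grafts lay below all I/R grafts, although they differed from each other by more than the I/R grafts did. Means were 7.93 ± 0.302 (SD, n = 2) and 8.97 ± 0.214 (SD, n = 3), a log2 difference of 1.04 (SE 0.20, limma adjusted p = 0.282), or 2.06-fold. Without non-I/R 1 it was 0.83 and without non-I/R 2 it was 1.25, and it passed the unadjusted threshold in all 16 other settings.

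Lss, the cyclase that folds oxidosqualene into lanosterol, had 6.51 and 6.49 in the non-I/R grafts and 6.83, 7.01 and 7.17 in the I/R grafts. The non-I/R values nearly coincided and all I/R values were above them. The difference of log2 means was 0.50 (SE 0.111, limma adjusted p = 0.284). It was 0.51 and 0.49 without non-I/R 1 or 2, where the unadjusted p of limma was 0.0674 and 0.0723. Lbr, a sterol reductase that also anchors the nuclear lamina, had 9.74 and 9.67 against 9.89, 9.99 and 10.00. The groups were again apart, by less than in Sqle. On the log2 scale I/R minus non-I/R was 0.26 (SE 0.050, limma adjusted p = 0.282), and its counterpart Tm7sf2, which carries out the same reduction, had -0.05 (SE 0.045).

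Other enzymes of this stretch did not pass. Hsd17b7, a ketosteroid reductase of the route, had 8.45 and 8.49 against 8.59, 8.69 and 8.86, and the desaturase Sc5d had 9.18 and 9.07 against 9.36, 9.22 and 9.26. Both had all I/R grafts above both non-I/R grafts, with log2 fold changes of 0.24 (SE 0.092) and 0.16 (SE 0.062) and unadjusted p of 0.0623 and 0.0707 from limma. Hsd17b7 passed, at 0.30, without I/R 1, and Sc5d was 0.10 without non-I/R 2. In the demethylase Cyp51 and the dehydrogenase Nsdhl only I/R 1 stood out, with 7.42 against 6.99 to 7.07 in the other 4 grafts and with 8.77 against 8.36 to 8.44. Fdft1, which joins farnesyl units into squalene, went the other way, with 9.82 and 9.63 against 9.54, 9.06 and 9.45. The log2 fold change was -0.37 (SE 0.181, limma adjusted p = 0.431) and -0.41 from its other probe set, and without I/R 2, the lowest graft, it was -0.23. So Fdft1 and Sqle, which carry out neighbouring steps, had differences of opposite sign. The isomerase Ebp and the last reductase Dhcr7 had -0.09 and -0.02.

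**Figure D2:**
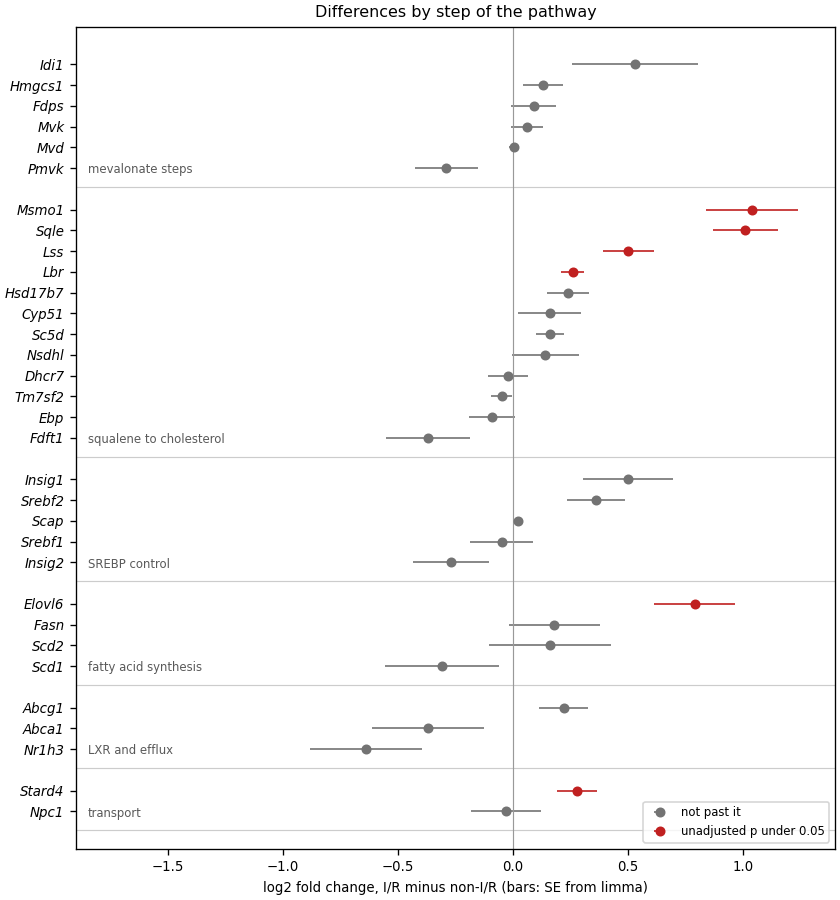
Log2 fold change of each measured member, I/R (n = 3) minus non-I/R (n = 2), with bars of 1 SE from limma (x axis), by role (rows) and by size within a role. Red points passed an unadjusted p of 0.05 and grey ones did not. Msmo1 and Sqle stand at 1.04 and 1.01, and Nr1h3 at -0.64 is the lowest point.

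Of the 5 genes that sense sterol or carry its signal, none passed the unadjusted threshold. In 3 all I/R grafts lay above both non-I/R grafts and in 1, Insig2, below, against 15.8% and 16.2% of all probe sets. For Scap, 1 of those 3, the log2 fold change was only 0.02. Srebf2, the factor that mainly drives cholesterol genes, gave log2 signals of 8.71 and 8.52 (non-I/R 1 and 2) against 8.82, 9.15 and 8.95 (I/R 1, 2 and 3). The gap between the groups was narrow, since I/R 1 lay just above non-I/R 1. The difference of log2 means was 0.36 (SE 0.127), and with an unadjusted p of 0.051 from limma it was just outside the threshold. It passed in 5 of 16 other settings, among them arrays centred on a common median. Insig1, the sterol sensor that is itself a target of SREBP, had 8.46 and 7.99 against 8.55, 8.90 and 8.71. Non-I/R 2 was the graft farthest from the rest. On the log2 scale I/R minus non-I/R was 0.50 (SE 0.195, limma adjusted p = 0.361), with 0.73, past the unadjusted threshold, when non-I/R 1 was left out and 0.26 when non-I/R 2 was.

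Srebf1, the factor that mainly drives fatty acid genes, had 8.79 and 8.74 in the non-I/R grafts and 8.48, 8.86 and 8.80 in the I/R grafts. The groups overlapped, and the log2 fold change was -0.05 (SE 0.138). The array does not separate the transcripts of SREBP1a and SREBP1c in the values given here. Insig2, the other INSIG gene, had 9.88 and 9.91 against 9.81, 9.35 and 9.73, a log2 difference of -0.27 (SE 0.164) that was opposite in sign to that of Insig1. It was -0.13 without I/R 2, the lowest graft. Scap, the escort protein, lay between 9.19 and 9.21 in all grafts.

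In fatty acid synthesis, 1 of 4 measured members (25%) rose, against 7.64% of all probe sets. Elovl6, the elongase that lengthens palmitate to stearate, gave log2 signals of 7.5 and 7.67 (non-I/R 1 and 2) against 8.32, 8.14 and 8.64 (I/R 1, 2 and 3). All I/R grafts lay clearly above. Means were 7.58 ± 0.121 (SD, n = 2) and 8.37 ± 0.253 (SD, n = 3), a log2 difference of 0.79 (SE 0.177, limma adjusted p = 0.284), or 1.73-fold. Left out in turn, non-I/R 1 and 2 brought the unadjusted p of limma to 0.0837 and 0.0523, with log2 fold changes of 0.70 and 0.87. Fatty acid synthase, Fasn, had 9.13 and 8.73 against 8.89, 9.33 and 9.12, with overlapping groups and a log2 difference of 0.18 (SE 0.198) that was 0.38 without non-I/R 1 and -0.02 without non-I/R 2. Desaturases, which put the first double bond into stearate, gave 8.84 and 8.33 against 8.45, 7.95 and 8.41 for Scd1 and 9.12 and 8.81 against 9.50, 8.76 and 9.12 for Scd2. Neither separated the groups, with log2 fold changes of -0.31 (SE 0.247) and 0.16 (SE 0.265), and in both I/R 2 was the lowest graft. With 1 graft left out, Scd1 lay between -0.56 (without non-I/R 2) and -0.06 (without non-I/R 1), and Scd2 between -0.03 (without I/R 1) and 0.34 (without I/R 2).

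**Figure D3:**
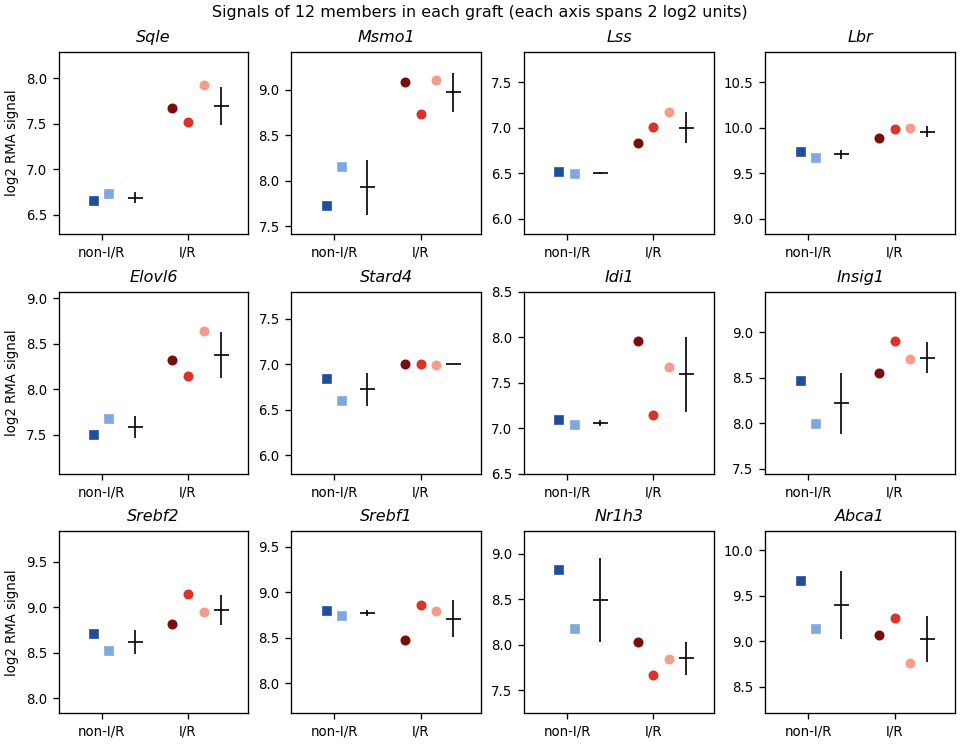
Log2 RMA signals (y axis, 2 log2 units in each panel) of 12 members in each graft, with the mean ± SD of each group in black. Squares are non-I/R 1 and 2 and circles are I/R 1, 2 and 3, from left to right. Groups are apart in 10 panels and overlap for Srebf1 and Abca1.

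LXR and the export genes gave no call. Nr1h3, which encodes LXR alpha, gave log2 signals of 8.82 and 8.17 (non-I/R 1 and 2) against 8.03, 7.67 and 7.84 (I/R 1, 2 and 3). All I/R grafts were below, yet non-I/R 1 and 2 differed from each other by more than non-I/R 2 did from I/R 2. The log2 fold change was -0.64 (SE 0.245, limma adjusted p = 0.351), and it was -0.32 without non-I/R 1 and -0.97 without non-I/R 2. It passed the unadjusted threshold in 4 of 16 other settings, among them quantile normalization and arrays centred on a common median. Abca1, the transporter that loads cholesterol onto apolipoprotein, had 9.66 and 9.14 against 9.07, 9.26 and 8.76. The high value was that of non-I/R 1 alone, and the log2 fold change of -0.37 (SE 0.242) became -0.11 without it. Leaving out non-I/R 2 made it -0.64 and leaving out I/R 3 made it -0.24. Abcg1, the second exporter, had 8.33 and 8.11 against 8.33, 8.43 and 8.56, with a log2 difference of 0.22 (SE 0.107) that was opposite in sign to that of Abca1. It was 0.11 without non-I/R 2 and 0.33 without non-I/R 1.

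Between membranes, Stard4, a soluble carrier of cholesterol and a target of SREBP, had log2 signals of 6.84 and 6.59 in the non-I/R grafts and of 7.0, 7.0 and 6.99 in the I/R grafts. The I/R grafts almost coincided, and the spread was that of the non-I/R pair. The difference of log2 means was 0.28 (SE 0.087, limma adjusted p = 0.308), and it was 0.15 without non-I/R 2. This call was lost with any I/R graft left out (unadjusted p = 0.0932 to 0.0984 from limma) and with the methods' t-test (p = 0.0606, an equal-variance test on these 5 grafts that is not an exact test). Npc1, which lets cholesterol leave the lysosome, had 10.53 and 10.15 against 10.36, 10.41 and 10.16, with overlapping groups and a log2 difference of -0.03 (SE 0.152).

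Of 69 further genes of sterol and lipid metabolism that had been listed, 57 were measured, and at the unadjusted threshold 7 (12.3%) were higher and 14 (24.6%) lower in I/R, against 7.64% and 7.35% of all probe sets. Their median log2 fold change was -0.11, and 0 passed after adjustment (limma). Without non-I/R 1 the counts were 3 and 6, and without I/R 3 they were 3 and 8. Those that rose included Tmem97, a sterol-responsive protein that binds NPC1, with log2 signals of 8.74 and 8.85 against 9.47, 9.59 and 9.73 and a log2 difference of 0.80 (SE 0.094, limma adjusted p = 0.282). Every I/R graft lay well above both non-I/R grafts. The citrate lyase Acly had 8.41 and 8.45 against 8.67, 8.84 and 8.80, and the cytosolic acetyl-CoA carboxylase Acaca had 7.88 and 7.99 against 8.22, 8.38 and 8.27, with log2 fold changes of 0.34 (SE 0.062) and 0.36 (SE 0.067). Both enzymes supply the building blocks of fatty acid synthesis, and both stayed past the unadjusted threshold with any 1 graft left out. Others that rose were the elongase Elovl1 (0.32, and 0.20 without non-I/R 1), the cholesterol-binding membrane proteins Erlin1 (0.39, and 0.25 without non-I/R 1) and Erlin2 (0.28), and Ch25h, which makes an oxysterol (0.67).

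Several enzymes that build or release triglyceride were among the 14 that fell. Lpin1, the phosphatidate phosphatase, is also listed as lowered by the study, from these arrays. It gave log2 signals of 10.68 and 9.68 (non-I/R 1 and 2) against 8.63, 8.16 and 8.13 (I/R 1, 2 and 3). The non-I/R grafts differed by 1 log2 unit and both lay above every I/R graft. On the log2 scale I/R minus non-I/R was -1.88 (SE 0.379, limma adjusted p = 0.282), and it was -1.38 without non-I/R 1. The acyltransferases Gpam, Agpat2 and Dgat2 had log2 fold changes of -0.78 (SE 0.135), -0.80 (SE 0.188) and -0.79 (SE 0.126), and the lipase Lpl, which frees fatty acids from blood lipoproteins, had -0.70 (SE 0.150). Acacb, the carboxylase at the mitochondrial surface whose product restrains fat burning, had 10.54 and 9.98 against 8.94, 9.01 and 8.92, a log2 difference of -1.3 (SE 0.190, limma adjusted p = 0.282). Its relative Acaca, given above, thus differed in the opposite direction. Rxrg, a retinoid receptor and partner of LXR, had -1.21 (SE 0.393) and its relatives Rxra and Rxrb -0.11 (SE 0.074) and 0.02 (SE 0.069). The remaining ones that fell were the acetyl-CoA synthetase Acss2 with -0.92, the sterol hydroxylase Cyp27a1 with -0.85 (-0.51 without non-I/R 1), the lipogenic protein Thrsp with -0.81, Mylip, an LXR target that marks lipoprotein receptors for breakdown, with -0.66, the thiolase Acat1 with -0.64, the cholesteryl ester hydrolase Nceh1 with -0.60 and the membrane ubiquitin ligase Rnf139 with -0.30. Of the 21 genes that rose or fell, 8 stayed past the unadjusted threshold with any 1 graft left out, namely Tmem97, Acly, Acaca, Acacb, Gpam, Lpin1, Dgat2 and Thrsp. The other 13 lost the call at least once, 12 of them when non-I/R 1 and 6 when non-I/R 2 was left out. Leaving out I/R 1, 2 or 3 lost 4, 7 and 10 calls. Erlin2, Ch25h, Rxrg, Acss2, Cyp27a1 and Rnf139 kept it in 1 of the 5 fits, and Elovl1, Erlin1 and Nceh1 in 2. Agpat2, at -0.80 with all grafts, lost it without I/R 2 or I/R 3. Heart muscle markers were lower in the same grafts, with the median of -0.51 given above, and their part in these differences was not tested.

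**Figure D4:**
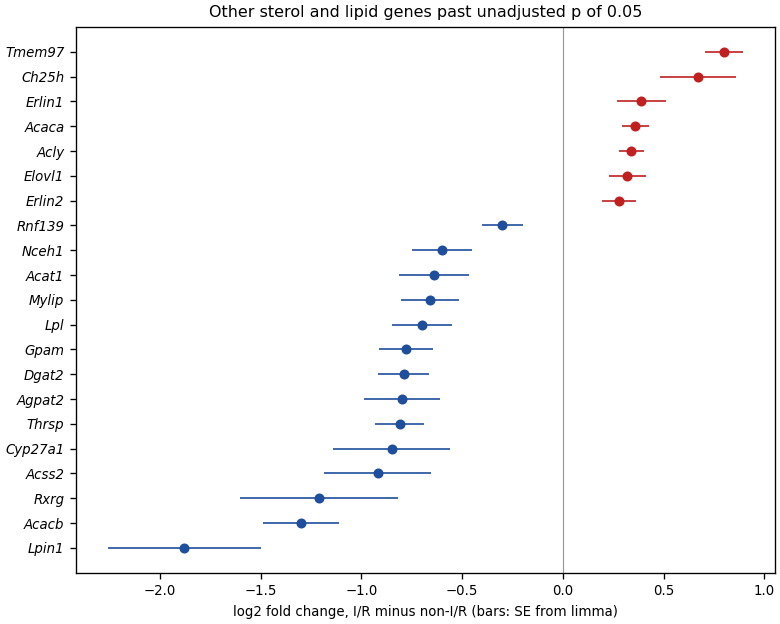
Log2 fold change, I/R (n = 3) minus non-I/R (n = 2), with bars of 1 SE from limma (x axis), of the 21 other sterol and lipid genes past an unadjusted p of 0.05 (rows). The 7 red points are higher in I/R, up to 0.80 for Tmem97, and the 14 blue points are lower, down to -1.88 for Lpin1.

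Exact ties between arrays touched 8 of the 32 members, namely Hmgcs1, Mvk, Mvd, Cyp51, Tm7sf2, Dhcr7, Scap and Abcg1. In Hmgcs1 non-I/R 2, I/R 1 and I/R 2 shared a single value to the last decimal given, and in Cyp51 non-I/R 1, I/R 2 and I/R 3 did. The cause of these ties was not tested. None of the 6 members that rose had tied values, and their mean signals lay at percentiles 44.3 to 87.6 of all probe sets tested.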

How the data were processed

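Gene expression was measured in 5 heart grafts, 3 I/R and 2 non-I/R, on Affymetrix Mouse Gene ST arrays, with groups taken from the labels of the samples. The values are log2 signals, normalized by the authors with RMA. Partek and RMA are named, with no version, in the processing notes of the submitters, and the genome build is not given in the sources used here. RMA puts the probe intensities of all arrays on a common distribution before they are summarised, so that a shift of most genes at once would be removed. The summarised values still differed slightly between arrays, with medians from 6.58 (I/R 1) to 6.65 (I/R 2). Of 35556 probe sets, 21789 with a single gene symbol were tested, 1621 had several symbols and 12146 were not listed in the annotation used. Symbols were updated through gene IDs (99.6% found). Each probe set was fitted by lmFit and eBayes of limma (version 3.58.1, under R 4.3.3, with a prior df of 0.824), with Benjamini-Hochberg adjustment over all 21789 probe sets, and log2 fold changes are I/R minus non-I/R. Where a gene had several probe sets, the brightest was used. The steps were tested on simulated data. The number of arrays limits the precision.

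Members and lists were chosen with earlier results of these data known, and Sqle and Msmo1 are also among the genes that the study lists at its 2-fold criterion on these arrays. Of the other listed genes, at least Lpin1 is in the study's own gene lists too. Values per graft are given for members past the unadjusted threshold, for the widest difference in each role and for Srebf1, Srebf2, Insig1, Nr1h3 and Abca1, which is the rule set for naming them. Values per graft of further members, and those of Rxra and Rxrb, were added after they had been seen. Other listed genes are named where they passed. Alternatives were 2 other normalizations, 2 other eBayes settings, the methods' t-test (what ANOVA gives with 2 groups), array weights, filters on probe sets and leaving out each graft in turn. Leaving out non-I/R 1 and I/R 2 together was added after the data had been seen. These grafts had the highest mean levels of atrial markers, at 10.67 and 10.53. Without them, with 1 non-I/R graft left, the log2 fold changes of Lss, Lbr and Elovl6 were 0.51, 0.28 and 0.81. Robust eBayes needed statmod 1.5.0. Motifs were searched with Python 3.11.15 and figures made with matplotlib 3.10.9.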

Additional observations from a re-analysis of the deposited data

How the results depend on the processing

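The count of 6 higher members lay between 5 and 7 with 1 graft left out, was 6 to 8 in the other planned settings and was 3 without non-I/R 1 and I/R 2 together. The count of lower members was 1 with arrays centred on a common median, with quantile normalization and without the probe sets equal on all arrays (Nr1h3 each time), and 0 to 2 with 1 graft left out. At the 2-fold criterion the count of higher members was 1 with quantile normalization, 0 without non-I/R 1 and I/R 2 together and 0 to 2 with 1 graft left out. The share of all probe sets past the unadjusted threshold was 9.24% with the methods' t-test and 8.71% to 19% with 1 graft left out. The median of all members was 0.04 to 0.17 with 1 graft left out and 0.23 without non-I/R 1 and I/R 2 together, and that of the enzymes of cholesterol synthesis was 0.05 to 0.17 and 0.23. Among the other listed genes the higher count was 3 with the methods' t-test, 3 to 7 with 1 graft left out and 2 without non-I/R 1 and I/R 2 together, and the lower count was 6 to 14 and 7 in the last 2 of these. The cause of these shifts was not tested.

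Signs turned in 10 members, none of them past the threshold of limma with all grafts. With 1 graft left out, the lowest and highest values were -0.0017 and 0.09 for Mvk, -0.0037 and 0.01 for Mvd, -0.08 and 0.04 for Dhcr7, -0.13 and 0.06 for Srebf1, -0.02 and 0.38 for Fasn, -0.03 and 0.34 for Scd2 and -0.22 and 0.16 for Npc1. Mvd was -0.0054 with centred arrays and -0.0039 with quantile normalization, and Scap was -0.0057 with the latter. Without non-I/R 1 and I/R 2 together, Ebp was 0.00097, Dhcr7 0.05, Scd1 0.10 and Npc1 0.11. Leaving out a non-I/R graft leaves 1, which is then assumed to vary like the I/R grafts. No paired analysis was possible because the labels give no replicate numbers. With 5 arrays and no probe intensities, differences as small as those of most members could not be told from the spread between grafts.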
